A study of Mus musculus with 6 samples.

Results

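Recovery of a leg muscle, the tibialis anterior (TAM), was followed here in hypothyroid mice from 5 to 14 days post injury (dpi) by single-cell RNA-seq. The comparison set 1 library at 14 dpi against 1 library at 5 dpi, across all genes, in all cells and in the cells with at least 1 UMI of Pdgfra, Cdh5 or Lyz2. A UMI (unique molecular identifier) marks 1 captured RNA molecule. The 2 libraries held 3805 of the 11207 cells that were used from the 6 libraries of the series, 2155 at 5 dpi and 1650 at 14 dpi. Pdgfra, at chr5:75312953-75358876 of GRCm39, encodes the receptor that marks fibro-adipogenic progenitors (FAPs). Cdh5, at chr8:104828257-104871143, encodes the cadherin of endothelial junctions, and Lyz2, at chr10:117113236-117118226, encodes the lysozyme of monocytes and macrophages.

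The mice were males of 3 to 5 months of age that carried Fucci2aR, a reporter of the cell cycle at the ROSA26 locus that needs Cre to be switched on (strain label B6;129). The mice sequenced had no Cre, so no cell carried an active reporter. Hypothyroidism was induced with food low in iodine that held propylthiouracil (PTU, 0.15% w/w), started 3 weeks before injury and kept up afterwards. Injury was an injection of cardiotoxin (CTX, 50 μg/ml) into the right TAM. Muscles of 3 mice were pooled in each library, and red blood cells and dead cells were removed before capture. Libraries from uninjured hypothyroid mice and from mice on a control diet at 0, 5, and 14 dpi are used below only to place single genes.

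CTX kills muscle fibers and spares most of the stem cells, vessels, and nerves around them. Macrophages then clear the debris, FAPs divide, secrete a provisional matrix, and later become quiescent or die, and capillaries regrow around the new fibers. PTU blocks the enzyme that couples iodine to thyroglobulin. Thyroid hormone enters cells through carriers such as that encoded by Slc16a10, is activated by the deiodinase encoded by Dio2, and acts on nuclear receptors, with Klf9 among the genes they switch on in many tissues.

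With 1 pooled library at each time there were no replicates, so nothing was tested between the times and no p-value is given. For each gene the UMIs were summed over the cells, expressed as CPM (scaled to the total UMIs of those cells), and compared as the ratio of 14 dpi to 5 dpi with its exact binomial 95% interval. A gene was compared where it had at least 50 UMIs over both times, and it is called higher or lower at 14 dpi where the whole interval lay past 2-fold. Intervals cover counting error only, not differences between cells, mice or preparations. They count UMIs as independent, so they can be too narrow where the UMIs of a gene sit in few cells. The libraries held 23496489 UMIs at 5 dpi (median 8055 per cell) and 13118781 at 14 dpi (median 6863.5 per cell), and their cells shared 1 barcode. Cells over 20000 UMIs numbered 354 at 5 dpi and 61 at 14 dpi. The deposited 5 dpi table holds 2154 further columns, in later runs of barcodes, and the labels do not say which library or mice these came from. They were left out, and whether the first run of each table belongs to its label could not be checked. The cell number the study gives for the earlier time is close to that of all columns together, and the one it gives for the later time is above the columns of that table.

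The mixture of cells differed strongly between the times. Pdgfra+ cells were 28.7% of the library at 5 dpi (619 cells, interval 26.8% to 30.7%) and 39.5% at 14 dpi (651 cells, 37.1% to 41.9%). Cdh5+ cells were 2.97% (64 cells, 2.29% to 3.78%) and 18.9% (312 cells, 17.1% to 20.9%), a share 6.37 times as large. Lyz2+ cells were 41.7% (899 cells, 39.6% to 43.8%) and 20% (330 cells, 18.09% to 22.01%), a ratio of 0.479. No pair of intervals overlapped. Over all cells, Pdgfra was at 81.7 and 173.9 CPM, Cdh5 at 28.8 and 209.4 CPM, and Lyz2 at 2201 and 1122 CPM. In such sums a larger share of cells and more RNA per cell cannot be told apart.

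Many marker-positive cells also carried a UMI of another marker. At 5 dpi, 157 of the 619 Pdgfra+ cells and 27 of the 64 Cdh5+ cells also had a Lyz2 UMI, and at 14 dpi these were 95 of 651 and 50 of 312. A stricter set was therefore added after the data had been seen, called restricted cells below: no UMI of the other 2 markers, and UMIs of at least 2 further markers of the same cell type. The restricted sets held 453 and 531 Pdgfra+ cells, 28 and 229 Cdh5+ cells, and 560 and 125 Lyz2+ cells at 5 and 14 dpi. In these sets the shares were 21.0% and 32.2%, 1.30% and 13.9%, and 26.0% and 7.58%, so the direction of each difference was kept. With each cell thinned to 2000 UMIs, cells that still had a marker UMI were 11.8% and 22.1% for Pdgfra, 2.18% and 12.9% for Cdh5, and 32.2% and 13.3% for Lyz2. With all columns of the 5 dpi table, the ratio of shares was 1.646 for Pdgfra+, 3.994 for Cdh5+, and 0.7633 for Lyz2+ cells.

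**Figure D1:**
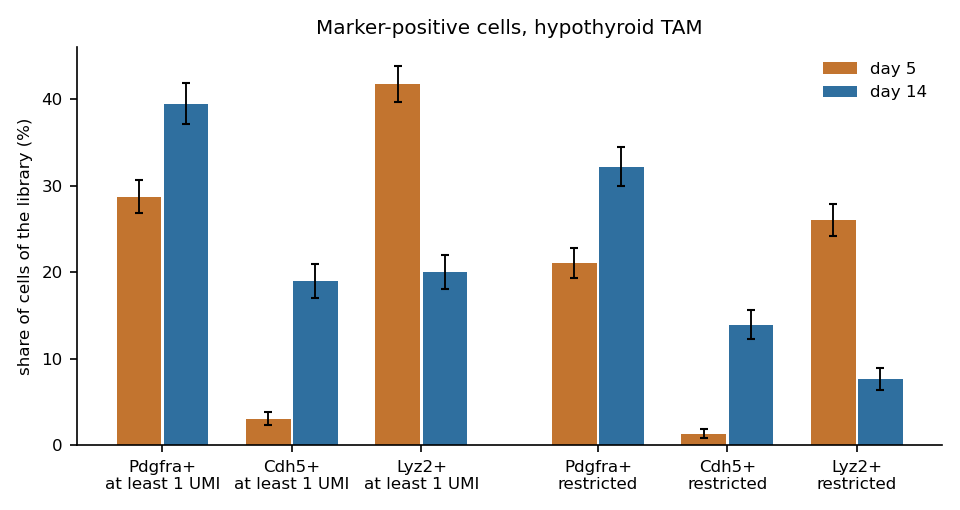
Share of the cells of each hypothyroid library (y axis, percent) that had at least 1 UMI of the marker (left) or passed the restricted rule (right), at 5 dpi (orange) and 14 dpi (blue), with bars for exact 95% intervals of counting error. Pdgfra+ and Cdh5+ cells made up a larger share at 14 dpi and Lyz2+ cells a smaller one, by both rules.

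The labels of the sets fit their own markers to different degrees. Each type had 10 markers, and the gene that chose the cells is left out of its own set's sum, which leaves 9. Over the 9 other FAP markers, Pdgfra+ cells were at 30398 CPM at 5 dpi and 35230 CPM at 14 dpi. Over the 9 other endothelial markers, Cdh5+ cells were at 1976 and 5036 CPM. Over the 9 other monocyte and macrophage markers, Lyz2+ cells were at 3329 and 3302 CPM, but they also held 11890 and 14973 CPM of the 10 FAP markers. The restricted rule itself asked for UMIs of such markers and for none of the other 2 genes, so its sums describe the choice of cells: 4279 and 6640 CPM of endothelial markers in restricted Cdh5+ cells, and 6096 and 6932 CPM of macrophage markers beside 2083 and 813.5 CPM of FAP markers in restricted Lyz2+ cells. Lyz2+ cells as a whole thus held markers of both types, and their values are given below beside those of restricted cells.

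Muscle fiber transcripts were higher at 14 dpi in every set. Summed over 6 myocyte markers (Acta1, Ckm, Tnnt3, Mylpf, Tnni2, and Pvalb), the level was 226.6 and 3069 CPM in all cells, 167.6 and 1856 CPM in Pdgfra+ cells, 111.3 and 2537 CPM in Cdh5+ cells, and 173.9 and 2548 CPM in Lyz2+ cells. All 6 were present in these 4 sets at both times. The restricted Pdgfra+, Cdh5+, and Lyz2+ cells were at 1985, 2556, and 3005 CPM at 14 dpi, and Tnnt3 and Pvalb were at 0 in restricted Cdh5+ cells at 5 dpi. Summed over 5 erythroid markers, the level was 1.23 and 259.6 CPM in all cells, and 1.27 and 1366 CPM in Cdh5+ cells, where Hba-a2, Hbb-bs, Hbb-bt, and Alas2 were at 0 at 5 dpi. The part of free or carried-over RNA in these levels was not tested.

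**Figure D2:**
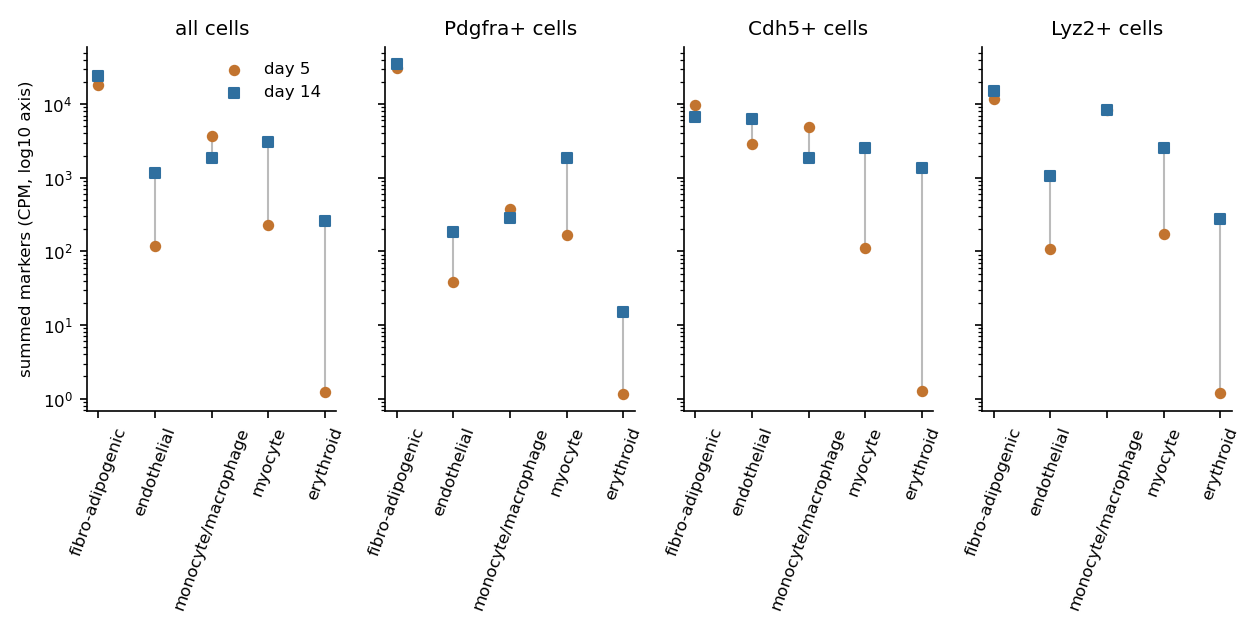
Summed level of the markers of 5 cell types (y axis, CPM, log10 scale) in all cells and in the 3 marker-positive sets of the hypothyroid libraries, with circles for 5 dpi, squares for 14 dpi, and a line joining the pair. Myocyte and erythroid markers lie higher at 14 dpi in all 4 panels. Monocyte and macrophage markers lie lower at 14 dpi in all cells, Pdgfra+ cells, and Cdh5+ cells, and nearly level in Lyz2+ cells.

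Over all cells, 12102 genes were compared, of which 1001 (8.27%) were higher and 693 (5.73%) lower at 14 dpi. Among the genes with the largest ratios were those of other cell types than the 3 markers select: the hemoglobin genes Hba-a2 (1 and 653 UMIs), Hba-a1 (3 and 880 UMIs), and Hbb-bs (21 and 1720 UMIs), the fast fiber myosin Myh1 (5 and 576 UMIs), and Myh8, the neonatal myosin of new fibers (4 and 287 UMIs). Sln, a regulator of the calcium pump of muscle, had 43 UMIs at 5 dpi and 2201 at 14 dpi, in 39 and 559 cells. Abcc9, a channel subunit of pericytes, had 14 UMIs in 8 cells at 5 dpi and 441 UMIs in 101 cells at 14 dpi. Of the muscle fiber genes, 19 of the 21 compared were higher and 0 lower (median log2 ratio 3.49, beside 0.14 over all genes).

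Hemoglobin depended on which columns were read. With the later runs of the 5 dpi table included, the ratio of Hba-a1 was 0.869, that of Hba-a2 0.796, and that of Hbb-bs 0.477, and 7 of 22 muscle fiber genes were higher. Among the genes called lower were R3hdml (144 UMIs in 46 cells at 5 dpi and 0 at 14 dpi), Spp1, the secreted matrix and macrophage protein osteopontin (2159 and 95.5 CPM, ratio 0.0442), Ltbp2, a microfibril protein (1963 and 40 UMIs), and Timd4, a receptor of resident macrophages (108 UMIs in 25 cells and 0). Ifnb1, which encodes interferon beta, had 656 UMIs in 88 cells at 5 dpi and 14 UMIs in 8 cells at 14 dpi. Mmp9, a protease of neutrophils and activated macrophages, had 374 and 7 UMIs.

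Scaling mattered for the balance of calls. Scaled to the total, the median log2 ratio was 0.14 in all cells, 0.05 in Pdgfra+, 0.24 in Cdh5+, and 0.17 in Lyz2+ cells. Under median-ratio scaling these medians were -0.07, -0.19, 0.33, and -0.05. The share of calls that were higher at 14 dpi went from 59.1% to 42.6% in all cells and from 45.8% to 26.2% in Pdgfra+ cells. In Lyz2+ cells it went from 72.3% to 53.9%, while in Cdh5+ cells it rose from 59.7% to 66.2%.

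Pdgfra+ cells at 14 dpi had fewer transcripts of DNA replication and mitosis genes, fewer of injury matrix genes, and more of genes of resting FAPs. Of 10579 genes compared in them, 689 (6.51%) were higher and 817 (7.72%) lower at 14 dpi. In restricted Pdgfra+ cells 9739 genes were compared, with 6.04% higher and 7.18% lower. Of the 34 genes of DNA replication and mitosis, 31 were lower and 0 higher in all Pdgfra+ cells, with a median log2 ratio of -4.33, and in restricted Pdgfra+ cells also 31 of 34 were lower (-4.22). The summed level of the list was 3261 CPM at 5 dpi and 749.1 CPM at 14 dpi. Mki67, a nuclear protein of cycling cells at chr7:135291513-135318090, had 423 UMIs in 130 of 619 cells at 5 dpi and 2 UMIs in 2 of 651 cells at 14 dpi.

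Other cell cycle genes were low as well. Pclaf, which binds the replication clamp, had 1174 UMIs in 182 cells and 9 UMIs in 2 cells (ratio 0.012, 0.00545 to 0.0228). Ube2c, the ubiquitin carrier of mitotic exit, had 882 and 9 UMIs, and Cdk1, the mitotic kinase, had 473 and 5. Ccna2, which encodes cyclin A, and Cenpf, a kinetochore protein, had 197 and 282 UMIs at 5 dpi and 0 at 14 dpi. Against a floor of 3 UMIs, Ccna2 was at most 0.0237 and Cenpf at most 0.0166 of its level at 5 dpi. In the list, 3 genes were not called: Pcna, the clamp itself (120.6 and 100.6 CPM, ratio 0.834), and the helicase subunits Mcm3 (0.697) and Mcm6 (0.531).

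The promoters of these genes often carry CCAAT, the box bound by NF-Y, and TTTGAA, the core of the CHR element through which late cell cycle genes are kept silent in resting cells. Windows from 250 bases before to 50 bases after the start of each gene were searched on both strands of GRCm39, with starts of canonical transcripts from GENCODE vM39, so CCAAT is also read as ATTGG and TTTGAA as TTCAAA. A match to CCAAT was in 26 of the 34 windows (76.5%) and in 4645 of 11891 windows of the protein-coding genes in the files (39.1%). TTTGAA was in 13 (38.2%) and 1638 (13.8%), and both were in 13 (38.2%) and 683 (5.74%). The motifs can share at most 1 base, and a match is a description of the sequence, not a bound site. Shown are the 130 bases before the start of the 4 genes of the list that hold both motifs there, and of Cenpf and Ube2c, which hold 2 and 3 CCAAT matches there, each 5′ to 3′ on the strand of the gene with the matches in capitals.
Cdk1, chr10:69188769-69188898, minus strand: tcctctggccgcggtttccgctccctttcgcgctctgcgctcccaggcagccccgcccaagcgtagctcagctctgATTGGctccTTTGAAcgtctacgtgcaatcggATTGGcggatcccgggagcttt
Ccnb2, chr9:70328875-70329004, minus strand: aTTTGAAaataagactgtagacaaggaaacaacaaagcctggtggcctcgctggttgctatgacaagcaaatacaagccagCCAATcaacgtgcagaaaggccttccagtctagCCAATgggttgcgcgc
Aurkb, chr11:68936337-68936466, plus strand: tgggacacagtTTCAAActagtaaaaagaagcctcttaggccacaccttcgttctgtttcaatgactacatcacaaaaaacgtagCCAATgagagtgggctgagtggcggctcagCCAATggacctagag
Hmgb2, chr8:57964557-57964686, plus strand: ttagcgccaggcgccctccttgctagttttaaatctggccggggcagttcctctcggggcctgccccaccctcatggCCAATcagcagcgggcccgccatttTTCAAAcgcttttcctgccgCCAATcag
Cenpf, chr1:189420313-189420442, minus strand: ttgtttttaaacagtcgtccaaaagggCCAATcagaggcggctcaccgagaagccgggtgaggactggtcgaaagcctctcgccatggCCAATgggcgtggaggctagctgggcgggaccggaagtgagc
Ube2c, chr2:164611688-164611817, plus strand: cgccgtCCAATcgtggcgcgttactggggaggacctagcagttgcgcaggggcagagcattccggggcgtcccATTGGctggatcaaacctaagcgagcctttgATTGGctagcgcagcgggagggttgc

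The 4 genes with both motifs were chosen for this display after their values were seen, and all were lower at 14 dpi in Pdgfra+ cells. Cdk1 was at 45.0 and 0.741 CPM, a ratio of 0.0165. Ccnb2, which encodes cyclin B2, had 445 UMIs in 155 cells and 12 UMIs in 10 cells (0.042, 0.0216 to 0.0742). Aurkb, the kinase of the chromosomal passenger complex, had 98 UMIs in 56 cells and 1 UMI (0.0159, 0.000399 to 0.0907). Hmgb2, a chromatin protein that is also made outside mitosis, had 2821 UMIs in 414 cells and 298 UMIs in 169 cells, and with 0.165 it was the least reduced of the 4.

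The injury matrix list covers what activated FAPs secrete and the contractile genes they take up. Of its 20 genes, 11 were lower and 0 higher in Pdgfra+ cells (median log2 ratio -1.20, summed level 26837 and 15736 CPM), and 11 of 20 were lower in restricted cells. Tnc, which encodes tenascin-C, a transient matrix protein of wounds, had 18387 UMIs in 484 cells at 5 dpi and 1185 UMIs in 136 cells at 14 dpi. That is 1748 and 175.6 CPM, a ratio of 0.1 (0.0946 to 0.107). Cthrc1, a secreted marker of matrix-making fibroblasts, was at 1138 and 138 CPM (0.121, 0.113 to 0.13). Spp1 was the lowest of the list, at 780.6 and 10.8 CPM, in 304 and 17 cells.

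The contractile genes of the list went with them. Acta2, smooth muscle actin, was at 239.7 and 14.8 CPM (0.0618, 0.0501 to 0.0755), and Tagln, which binds actin, at 159.5 and 10.8 CPM. Postn, which encodes periostin, kept more of its level (4081 and 1884 CPM, 0.462), and Timp1, an inhibitor of metalloproteinases, was at 1585 and 452 CPM (0.285). Not every matrix gene was lower: Fn1, fibronectin, was at 2462 and 2397 CPM, Thbs1 at 1583 and 2013 CPM, and Runx1, a transcription factor of activated FAPs, at 376.5 and 610.1 CPM. None of these 3 was called.

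Genes of resting FAPs were often higher at 14 dpi. Of 26 such genes, 13 were higher and 1 lower in Pdgfra+ cells (median log2 ratio 1.11, summed level 12365 and 28140 CPM), and 12 were higher and 0 lower in restricted cells. Gsn, which encodes gelsolin, an actin-severing protein, at chr2:35146392-35197904, had 11084 UMIs at 5 dpi and 50745 at 14 dpi, in 603 and 646 cells. Its level was 1054 and 7520 CPM, 7.13-fold higher (6.99 to 7.28), and 6.67-fold in restricted cells. Pi16, a marker of the adventitial FAP state, was at 175.7 and 671.4 CPM (3.82-fold, 3.62 to 4.04), and Dpp4, a surface protease of the same state, at 16.4 and 71.7 CPM (4.36-fold, 3.66 to 5.22).

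Apod, a lipid carrier, was 3.95-fold higher (541 and 2139 CPM). Sema3c, a secreted guidance protein, and Clec3b, tetranectin, both chosen after their values were seen, were 3.1-fold and 3.23-fold higher. The member called lower was Cxcl14, a chemokine (725.2 and 312.2 CPM, 0.43), and in restricted cells it was not called (0.499, 0.473 to 0.526). Ly6a, the surface protein SCA1 used to sort FAPs, and Mfap5, a microfibril protein, were not called, at 0.677 and 0.923. With the later runs of columns included, 8 of the 26 were higher and 1 lower, and in restricted cells without those over 20000 UMIs 8 were higher and 0 lower.

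**Figure D3:**
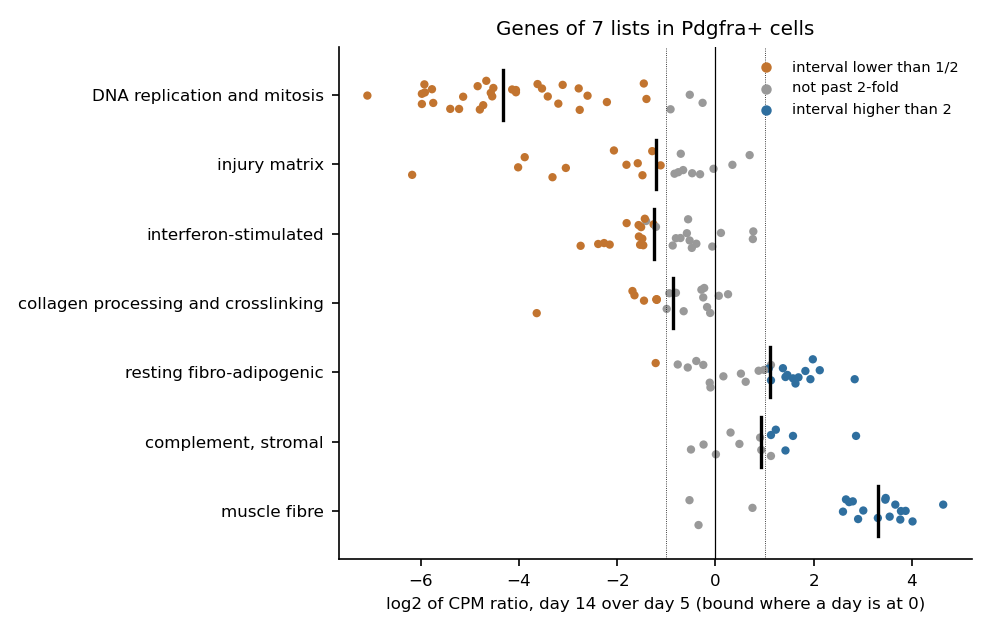
Log2 of the CPM ratio of 14 dpi to 5 dpi in Pdgfra+ cells of the hypothyroid libraries (x axis) for each compared gene of 7 lists (1 point a gene, at its bound where a time had no UMI), with black bars at the list medians and dotted lines at 2-fold. Blue and orange points have their whole 95% interval past 2-fold. Cell cycle genes lie farthest to the left and muscle fiber genes farthest to the right.

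Counted by cell, the same genes separated the times. Cells with a Pi16 UMI were 39.7% of Pdgfra+ cells at 5 dpi and 72.0% at 14 dpi, and those with a Dpp4 UMI 13.9% and 34.4%. Cells with a UMI of Cthrc1 were 87.4% and 33.8%, of Tnc 78.2% and 20.9%, of Acta2 45.6% and 5.53%, and of Mki67 21.0% and 0.307%. The median depth of the Pdgfra+ cells was 15813 and 10162 UMIs, so cells were also thinned to 2000 UMIs, which left out 25 cells at each time. After thinning, Pi16 was found in 18.9% and 48.7% of cells, Cthrc1 in 70.5% and 17.1%, and Mki67 in 7.24% and 0 of 626 cells, which allows a share of up to 0.479% of cells with a UMI at this depth and does not limit the cells expressing the gene. For comparison, Pi16 UMIs were in 12.5% and 8.33% of Cdh5+ cells (median depth 10349 and 4818 UMIs).

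Dlk1 was in no list and was chosen after its values were seen. It encodes an imprinted membrane protein that holds back fat cell formation. It had 1263 UMIs in 107 Pdgfra+ cells at 5 dpi and 5207 UMIs in 268 cells at 14 dpi, 120.1 and 771.6 CPM (6.42-fold, 6.04 to 6.84). The share of cells with a UMI was 17.3% and 41.2%, and 7.58% and 30.7% after thinning. In restricted cells the ratio was 7.19. Dlk1 UMIs were also in 6.25% and 10.3% of Cdh5+ cells, and in 3.39% and 7.49% of them after thinning, and in 0.536% and 4% of restricted Lyz2+ cells. Smoc2, a FAP marker set beside them, had UMIs in 78.8% and 68.5% of cells, and in 43.4% and 44.3% after thinning.

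**Figure D4:**
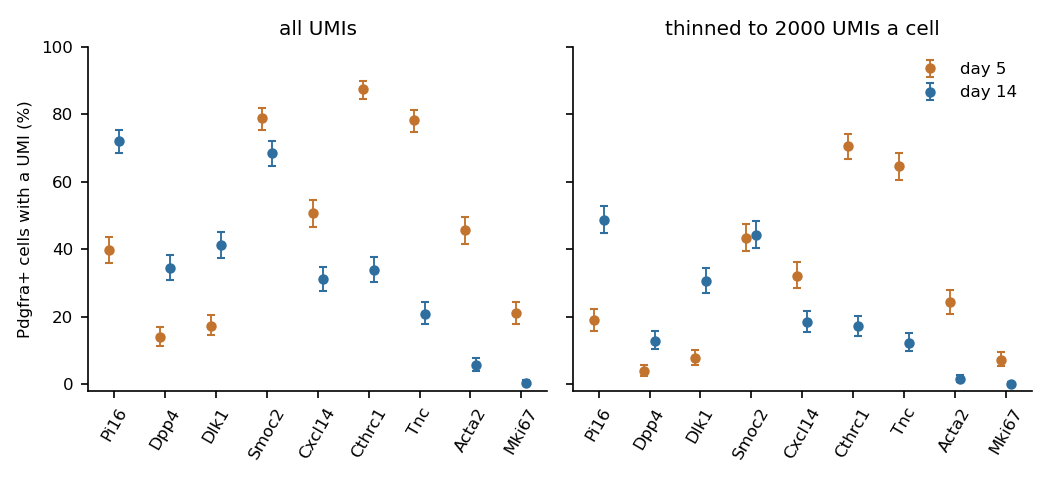
Share of Pdgfra+ cells with at least 1 UMI of each of 9 genes (y axis, percent) at 5 dpi (orange) and 14 dpi (blue), with all UMIs (left) and with every cell thinned to 2000 UMIs (right), and bars for exact 95% intervals. Pi16, Dpp4, and Dlk1 lie higher at 14 dpi, and Cthrc1, Tnc, Acta2, and Mki67 lie lower, in both panels.

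Fibrillar collagen genes and most genes of the enzymes that work on them were below their 5 dpi level, though not all were called. Of 7 fibrillar collagen genes in Pdgfra+ cells, 0 had a ratio above 1 (median log2 ratio -0.444, summed levels 28001 and 19563 CPM). Called lower were 1 of the 7 in Pdgfra+ cells and 2 in restricted cells, beside 7.72% and 7.18% of all genes. Col1a1 was at 9243 and 4661 CPM, 0.504 in Pdgfra+ cells (0.498 to 0.511, not called) and 0.49 in restricted cells (0.483 to 0.497, called lower). Col5a1 was at 0.435 and Col1a2, the partner chain of Col1a1, at 0.735 of their 5 dpi level. Of 18 genes of collagen processing and crosslinking, 7 were lower and 0 higher. Loxl3, a lysyl oxidase, had 1474 UMIs in 411 cells and 76 UMIs in 67 cells (0.0803, 0.063 to 0.101). Lox, the main crosslinking enzyme, was at 1168 and 372.7 CPM (0.319), Fkbp10, a chaperone of procollagen, at 0.31, and Ppib, a prolyl isomerase of the same complex, at 0.365.

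Elastic fiber genes went both ways, with 2 of 15 higher and 3 lower, beside 6.51% and 7.72% of all genes. Ltbp4, which links TGF-beta to elastic fibers, was at 51.1 and 443.5 CPM (8.69-fold, 7.92 to 9.54). Efemp2, a fibulin, and Fbn2, the fibrillin of growing tissue, were lower, at 0.357 and 0.324. Of 17 basement membrane genes, 5 were higher and 0 lower, among them Lama2, the laminin chain of muscle (66.8 and 247 CPM, 3.7-fold), Col4a1 (2.41-fold), and Nid1 (2.25-fold). With median-ratio scaling, or without cells over 20000 UMIs, 1 of the 17 was called. Of 19 integrins and matrix receptors, 4 were higher and 0 lower, with Ddr2, a collagen receptor, at 3.51-fold and Itga5, the fibronectin receptor chain, at 2.48-fold.

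Of 14 metalloproteinase and inhibitor genes, 4 were higher and 2 lower, beside 6.51% and 7.72% of all genes. Mmp3, stromelysin, at chr9:7445822-7455975, had 758 UMIs in 86 cells at 5 dpi and 4381 UMIs in 109 cells at 14 dpi, 72.1 and 649.2 CPM (9.01-fold, 8.34 to 9.74). The share of cells with a UMI was 13.9% and 16.7%, with intervals that overlapped. Mmp2, a gelatinase, was 3.36-fold higher (314.8 and 1058 CPM), and Timp3, an inhibitor bound to matrix, was 3.79-fold higher and 2.74-fold in restricted cells. Mmp9 had 221 UMIs in 83 cells and 1 UMI.

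Among chemokines and cytokines of the stroma, 2 of 18 were higher and 4 lower, beside 6.51% and 7.72% of all genes. Csf1, the growth factor of macrophages, was at 778.4 and 3459 CPM (4.44-fold, 4.33 to 4.56), and Ccl11, which attracts eosinophils, at 136.2 and 340.8 CPM (2.5-fold). Cxcl10, an interferon-induced chemokine, was at 675.4 and 97.7 CPM (0.145, 0.133 to 0.157), in 329 and 82 cells. Cxcl12 was at 0.398. Ccl2 and Ccl7, which attract monocytes, were abundant at both times and were not called: Ccl2 was at 14176 and 16085 CPM and Ccl7 at 3938 and 7226 CPM.

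Of 27 interferon-stimulated genes, 13 were lower and 0 higher (median log2 ratio -1.26, summed level 5718 and 3496 CPM), and 12 of 27 in restricted cells. Ifi44 was at 33.8 and 5.04 CPM (0.149), Bst2, tetherin, at 583 and 121.2 CPM (0.208), and Ifit3 at 98.8 and 22.2 CPM (0.225). Of 13 complement genes of the stroma, 5 were higher and 0 lower. C4b was 2.99-fold higher, Cd55, which shields cells from complement, 2.69-fold, C1s1 2.35-fold, and C3 2.19-fold. In restricted cells without those over 20000 UMIs, 0 of 10 were called, and with the later runs of columns 1 of 15 was.

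Of 15 genes of the IGF system, 4 were higher and 2 lower, beside 6.51% and 7.72% of all genes. Igf2, a growth factor of fetal and regenerating muscle, had 15 UMIs in 13 cells at 5 dpi and 184 UMIs in 103 cells at 14 dpi (19.1-fold, 11.3 to 34.9). Igfbp3, a binding protein, was at 224.8 and 867.5 CPM (3.86-fold). Pappa, the protease that frees IGF from its carriers, had 218 and 12 UMIs (0.0858, 0.0437 to 0.153). The related secreted Wnt modulators differed in opposite directions, Sfrp2 at 154.8 and 7.71 CPM (0.0498) and Sfrp4 at 21.7 and 103.4 CPM (4.77-fold). Inhba, an activin subunit, was at 1207 and 525 CPM (0.435), and it was not called without cells over 20000 UMIs (0.646).

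Of 20 genes of thyroid hormone signalling, 2 were higher and 0 lower in Pdgfra+ cells, beside 6.51% and 7.72% of all genes. The list was thus not clearly apart from all genes in the share called higher. Klf9 was at 212 and 664 CPM (3.13-fold, 2.98 to 3.3), in 444 and 561 cells. With the later runs of columns its ratio was 1.96 and not called. Slc16a10 had 104 UMIs in 78 cells and 280 UMIs in 167 cells (4.2-fold, 3.34 to 5.31). Dio2 (14.3 and 30.8 CPM, 2.16-fold, 1.74 to 2.68) was not called.

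The other libraries place these values, as a description. In Pdgfra+ cells of the uninjured hypothyroid library (177 cells) Gsn was at 22381 CPM, Pi16 at 631.3, Klf9 at 1423, and Csf1 at 1842 CPM, while Cthrc1 was at 3.13, Tnc at 1.04, and Postn at 32.3 CPM. The 14 dpi levels of Gsn and Klf9 thus lay between those of 5 dpi and of uninjured muscle, as did those of Tnc, Cthrc1, and Postn, while Csf1 was above the uninjured level and Pi16 was at 671.4 beside 631.3 CPM. On the control diet at 5 and 14 dpi, Gsn was at 1469 and 10293 CPM, Klf9 at 476.2 and 821.7, Tnc at 2319 and 82.8, and Postn at 4413 and 804.9 CPM. Mmp3 was at 308.6 and 199.9 CPM on the control diet, against 72.1 and 649.2 CPM on the hypothyroid diet. Igf2 was at 1.19 and 4.1 CPM on the control diet.

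Muscle fiber genes were called in Pdgfra+ cells as well, 16 of 19 higher and 0 lower. Ckm, muscle creatine kinase, was at 13.9 and 203.3 CPM (14.6-fold), in 50 and 441 cells, and Acta1, skeletal actin, at 60.7 and 708.9 CPM, in 193 and 625 of the cells. Ckm was 12.2-fold higher in restricted cells and 1.81-fold (not called) with the later runs of columns, where 6 of 20 muscle fiber genes were higher. Cldn5, an endothelial junction protein, was 24.4-fold higher in Pdgfra+ cells (18 UMIs in 6 cells and 282 UMIs in 31 cells), but 1.41-fold in restricted cells (11 and 12 UMIs).

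Cdh5+ cells at 14 dpi had more of the capillary genes listed and less of Plvap, Edn1, and interferon-induced genes. Of 6853 genes compared, 231 (3.37%) were higher and 156 (2.28%) lower. In restricted Cdh5+ cells 4675 genes were compared, with 2.01% higher and 0.941% lower. Only 64 cells were available at 5 dpi, 28 of them in the restricted set, so intervals are wide. Of 20 capillary genes, 10 were higher and 2 lower (median log2 ratio 1.31, beside 0.24 over all genes), and 10 were higher and 1 lower in restricted cells (1.38, beside 0.1). Timp4, an inhibitor of metalloproteinases made by capillaries, at chr6:115218853-115229166, had 3 UMIs in 3 cells at 5 dpi and 483 UMIs in 154 cells at 14 dpi (54.2-fold, 18.4 to 263.9).

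Genes of lipid uptake and water transport were among them. Gpihbp1, which carries lipoprotein lipase across capillary walls, was at 134.1 and 495.3 CPM (3.69-fold, 3.02 to 4.55), and 3.26-fold higher in restricted cells. Cd300lg, a capillary surface receptor, was at 25.3 and 196.1 CPM (7.75-fold, 4.96 to 12.8), and 8.12-fold in restricted cells. Aqp1, the water channel, was 4.58-fold and 2.76-fold higher in the 2 sets. Lpl, the lipase itself, was not called in Cdh5+ cells (2.14-fold) and was 7.01-fold higher in restricted cells (11 and 488 UMIs).

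By cell, Gpihbp1 UMIs were in 43.8% of Cdh5+ cells at 5 dpi (31.4% to 56.7%) and 76.9% at 14 dpi (71.8% to 81.5%), and in 20.3% and 53.3% after thinning. In Pdgfra+ cells, which should lack it, they were in 0.646% and 3.99%. Plvap, the diaphragm protein of fenestrated and immature vessels, was lower: 105 UMIs in 25 cells and 65 UMIs in 27 cells (132.9 and 27.7 CPM, ratio 0.209, 0.151 to 0.287). Edn1, endothelin, which was chosen after its values were seen, had 237 UMIs in 24 cells and 179 in 38 cells (0.254, and 0.107 in restricted cells).

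Junction genes separated the full from the restricted set. Cldn5 was called in both, at 288.5 and 1662 CPM (5.76-fold) and, in restricted cells, at 673.3 and 2201 CPM (3.27-fold, 2.76 to 3.9). Of 13 junction genes, 4 were higher in Cdh5+ cells and 1 in restricted cells, beside 3.37% and 2.01% of all genes. Among angiogenic genes, Pgf, a placental relative of VEGF, was higher in both (6.05-fold and 3.12-fold). The VEGF receptors Kdr and Flt1 were 2.95-fold and 2.75-fold higher in Cdh5+ cells, and 1.63-fold and 1.62-fold in restricted cells, where neither was called. Over 22 angiogenic genes the median log2 ratio was 0.61 in the full set, and over 21 it was 0.03 in restricted cells.

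Of 27 interferon-stimulated genes, 7 were lower and 0 higher in Cdh5+ cells, and 6 of 22 were lower in restricted cells. With cells thinned to 2000 UMIs, 0 were called. Ifit1 was at 876.9 and 362.7 CPM (0.414, and 0.36 in restricted cells), and Ifit3 at 289.8 and 115.9 CPM (0.4 and 0.183). Cxcl10 was at 933.8 and 304.3 CPM (0.326 and 0.157). Igfbp7, a secreted vessel protein, and Vcam1, which binds leukocytes, were called lower in restricted cells alone, at 0.421 and 0.318, while in Cdh5+ cells they were at 0.542 and 0.579. Btg2, an antiproliferative early response gene, was higher in both sets (5.17-fold and 4.29-fold). Egr1 and Klf2 were higher in Cdh5+ cells (3.14-fold and 3.12-fold) and were not called in restricted cells (1.97-fold and 1.56-fold).

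Several genes called lower in Cdh5+ cells are genes of macrophages. The 10 monocyte and macrophage markers summed to 4866 CPM at 5 dpi and 1843 CPM at 14 dpi in Cdh5+ cells, and to 14.3 and 27.9 CPM in restricted cells, which by rule hold no Lyz2 UMI. Of 19 cathepsin and lysosome genes, 13 were lower in Cdh5+ cells and 0 of 12 in restricted cells. Ctsl was at 0.224 and 0.954 in the 2 sets, Fabp5, a fatty acid carrier, at 0.118 and 0.861, and Ccl4, a macrophage chemokine, at 0.0253 (1440 and 108 UMIs) and 1.21 (3 and 23 UMIs, 0.366 to 6.3). Cxcl5 changed side, from 0.236 to 5.53-fold higher (5 UMIs in 5 cells and 175 UMIs in 19 cells).

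Genes of other cell types were also called in Cdh5+ cells. Of 12 mural cell genes, 8 were higher and 0 lower, and in restricted cells 4 of 11 were higher and 0 lower. All 4 hemoglobin and erythroid genes compared were higher in both sets. Of 19 muscle fiber genes 18 were higher, and of 15 in restricted cells 12. Of 10 myogenic genes 7 were higher and 0 lower, and of 7 in restricted cells 5 were higher and 1 lower. Rgs5, a pericyte marker, was 3.59-fold higher in Cdh5+ cells and 2.6-fold in restricted cells. Kcnj8, a pericyte channel, had 0 UMIs at 5 dpi and 137 UMIs in 43 cells at 14 dpi, at least 15.4-fold higher against 3 UMIs, and at least 5.48-fold in restricted cells (104 UMIs). Hbb-bs had 0 UMIs and 1623 UMIs in 27 cells, and Hba-a1 had 1 UMI and 831 UMIs in 11 cells. Myod1, the myogenic factor, had 1 UMI and 534 UMIs in 33 cells, and Myog, which drives fusion, had 0 UMIs and 202 UMIs in 6 cells. No doublet caller was run, and the part of doublets in these values was not tested.

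**Figure D5:**
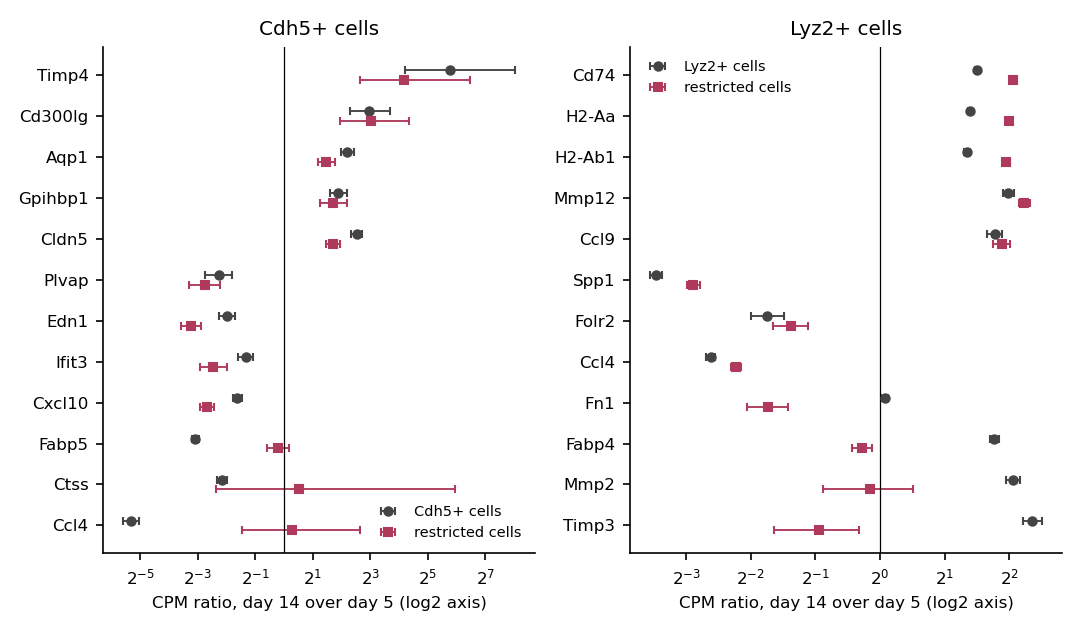
CPM ratio of 14 dpi to 5 dpi (x axis, log2 scale) of 12 genes in Cdh5+ cells (left) and 12 genes in Lyz2+ cells (right), with circles for all marker-positive cells, squares for restricted cells, and bars for exact 95% intervals. Capillary and MHC class II genes lie to the right of 1 by both rules, and Fabp5, Ctss, and Ccl4 (left) and Fabp4, Mmp2, and Timp3 (right) lie apart by rule.

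Lyz2+ cells at 14 dpi carried more MHC class II, the molecules that present antigen to helper T cells, and less Spp1 and Ccl4. Of 10223 genes compared, 526 (5.15%) were higher and 202 (1.98%) lower. In restricted cells 7226 genes were compared, with 124 higher and 144 lower. Of 8 MHC class II genes, 6 were higher and 0 lower in Lyz2+ cells (median log2 ratio 1.29, summed level 5833 and 15249 CPM), and 6 of 7 in restricted cells (1.96, beside 0.02 over all genes, 8129 and 32186 CPM).

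Cd74, the invariant chain, had 16816 UMIs in 399 of 560 restricted cells at 5 dpi and 14988 UMIs in 124 of 125 at 14 dpi. That is 3354 and 13998 CPM, 4.17-fold higher (4.08 to 4.27), and 2.84-fold in all Lyz2+ cells. H2-Aa, at chr17:34501718-34506797, and H2-Ab1, the chains of I-A, were 4-fold and 3.88-fold higher in restricted cells, H2-Eb1 was 3.6-fold, and H2-DMb1, which loads peptide, 4.26-fold. H2-DMa, chosen after its values were seen, was 3.1-fold higher. Ciita, the factor that switches these genes on, was sparse and not called (48 and 5 UMIs, 0.488, 0.151 to 1.22).

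By cell, H2-Aa UMIs were in 59.5% of restricted Lyz2+ cells at 5 dpi (55.3% to 63.6%) and 96% at 14 dpi (90.9% to 98.7%), and in 49.9% and 89.9% after thinning. In all Lyz2+ cells the shares were 47.2% and 52.1%, with overlapping intervals, and in Pdgfra+ cells 11.6% and 9.68%. The MHC class II calls of the full Lyz2+ set were lost without its largest cells. Without cells over 20000 UMIs, 0 of 8 genes were called there (median log2 ratio 0.69), with Cd74 at 1.92 and H2-Aa at 1.77. In restricted cells without those over 20000 UMIs, 6 of 6 were higher, with Cd74 at 3.62 and H2-Aa at 3.5.

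Lists of macrophage types held calls both ways. Of 18 genes of galectin-3 and lipid repair macrophages, 2 were higher and 4 lower in Lyz2+ cells, and 0 and 3 of 18 in restricted cells. Of 19 genes of inflammatory monocytes 1 was higher and 4 lower, and 2 and 2 of 18 in restricted cells. Of 14 dendritic cell genes 1 was higher and 3 lower, and 0 and 2 of 11 in restricted cells. The background was 5.15% higher and 1.98% lower in Lyz2+ cells, and 1.72% higher and 1.99% lower in restricted cells. Of 17 genes of C1q macrophages, 1 was higher and 2 lower in Lyz2+ cells, and 2 and 1 of 16 in restricted cells. C1qa itself was at 1420 and 961.3 CPM (0.677, and 0.82 in restricted cells, not called). C1qa UMIs were in 83.8% and 87.2% of restricted cells. Folr2, a folate receptor of resident macrophages, was lower (0.299 and 0.384 in the 2 sets), while Maf, a transcription factor of the same cells, was higher (2.69-fold and 3.55-fold). Lyz2 itself was at 5070 and 5059 CPM in Lyz2+ cells.

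Spp1 was much lower at 14 dpi. Spp1 had 31128 UMIs in 453 of 560 restricted cells at 5 dpi and 896 UMIs in 49 of 125 at 14 dpi, 6209 and 836.8 CPM (0.135, 0.126 to 0.144), and in all Lyz2+ cells it was at 0.0899. Fabp5 was at 3749 and 1242 CPM in Lyz2+ cells (0.331, and 0.436 in restricted cells), and Syngr1, a vesicle protein, at 0.203 and 0.262. The chemokine Ccl4 was at 3550 and 576.2 CPM (0.162, and 0.213 in restricted cells).

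Other chemokines and proteases were higher. Ccl9 was at 118.4 and 405.8 CPM (3.43-fold and 3.69-fold in the 2 sets), and Ccl6 was 2.45-fold and 2.88-fold higher. Mmp12, macrophage elastase, was at 200.1 and 795 CPM (3.97-fold, 3.74 to 4.22), and in restricted cells 1930 UMIs in 108 cells and 1945 UMIs in 44 cells gave 4.72-fold. Mmp13, a collagenase, and Mmp19 were 4.12-fold and 3.26-fold higher in restricted cells. F13a1, a clotting factor chain of monocytes and tissue macrophages, was 2.54-fold and 3.07-fold higher. Retnla, a marker of alternative activation chosen after its values were seen, had 22 UMIs in 7 cells and 543 UMIs in 16 cells.

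Of 27 interferon-stimulated genes, 4 were lower in Lyz2+ cells and 2 in restricted cells, and 0 were higher. Of all genes, 1.98% and 1.99% were lower in these sets. Bst2 was at 624.6 and 198.9 CPM (0.318 and 0.385 in the 2 sets), and Oas1a at 0.249 and 0.265. Ccr7, the receptor of migrating dendritic cells, had 598 UMIs in 64 cells and 1 UMI in Lyz2+ cells, and 252 and 1 in restricted cells. Il4i1, an enzyme of activated antigen-presenting cells, had 159 UMIs in 38 cells and 0, at most 0.0661 of its 5 dpi level. Plac8, a gene of inflammatory monocytes, was at 131.3 and 20.6 CPM (0.157 and 0.236).

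Stromal and vascular genes in Lyz2+ cells depended on the set. Fabp4 was 3.42-fold higher in Lyz2+ cells and at 0.825 in restricted cells, Timp3 5.14-fold and 0.518, Mmp3 4.49-fold and 0.585, and Mmp2 4.17-fold and 0.896. Timp4 had 1 and 119 UMIs in Lyz2+ cells and none in restricted cells. Injury matrix genes were lower in both, 7 of 20 in Lyz2+ cells and 12 of 17 in restricted cells (median log2 ratio -2.04). Tnc was at 0.204 and 0.0472, and Cthrc1 at 0.124 and, with 339 and 1 UMIs, 0.0138. In restricted cells the 10 FAP markers summed to 2083 and 813.5 CPM beside these, and their part in the matrix values was not tested.

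The summed level of mitochondrial transcripts was higher at 14 dpi in every set. Over all cells it was 22587 and 29958 CPM, with 3 of 13 genes higher and 0 lower. With all columns, 1 of 13 was higher over all cells. In Pdgfra+ cells 2 of 13 were higher (18546 and 23402 CPM), and in Cdh5+ cells 4 of 13 (23140 and 36242 CPM). In Lyz2+ cells 5 of 13 were higher and 0 lower (summed level 22419 and 35321 CPM), and in restricted Lyz2+ cells 6 of 13 were higher. Of all genes, 8.27% were called higher in all cells, 6.51% in Pdgfra+, and 3.37% in Cdh5+ cells. In Lyz2+ cells it was 5.15%, in restricted ones 1.72%, and with all columns 603 of 12329 genes. With 13 genes, the calls in Pdgfra+ cells and with all columns were thus not clearly apart from all genes. The genes differed widely: mt-Nd3 was at 135.7 and 1032 CPM (7.61-fold), mt-Nd2 was 3.92-fold and mt-Nd1 2.66-fold higher, while mt-Co1 was at 0.878. Muscle fiber transcripts were higher beside them, with Ckm at 12.1 and 308.2 CPM in Lyz2+ cells and 13 and 363.3 CPM in restricted cells, and Acta1 in 300 of 899 cells at 5 dpi and 317 of 330 at 14 dpi.

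On the control diet at 5 and 14 dpi, Cd74 was at 4541 and 17914 CPM in restricted Lyz2+ cells (235 and 88 cells), H2-Aa at 3205 and 8144 CPM, and Spp1 at 8161 and 128 CPM. Mmp12 was at 121.5 and 135.9 CPM there, against 385 and 1817 CPM on the hypothyroid diet. In restricted Cdh5+ cells (128 and 657 cells) of the control diet, Timp4 was at 23.2 and 245 CPM, Gpihbp1 at 248.3 and 614.1 CPM, and Plvap at 364.2 and 107.2 CPM. These libraries were not compared by test with the hypothyroid ones.

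In the 5 dpi library H2ac24, H2ac8, and Gm10076 were above all of the other 5 libraries over all cells. H2ac24 and H2ac8, replication-dependent histones, were at 204.2 and 85.1 CPM over all cells at 5 dpi and at 11.97 and 3.89 CPM at 14 dpi, and at most at 11.97 and 18.8 CPM in the other 5. Gm10076 was at 3043 CPM and at most at 891.3 CPM in the other 5. In Pdgfra+ cells H2ac24 had 2257 UMIs in 131 cells and 2 UMIs, at 214.6 CPM in hypothyroid and 6.93 CPM in control mice at 5 dpi. Gm10076 was at 3140 and 449 CPM in Pdgfra+ cells, and Rps27rt and Gm12840 were 16.6-fold and 16.3-fold higher there. Over all cells, Gm12840 was at 28.9 CPM at 5 dpi, below the other 5 libraries, while Rps27rt, at 7.79 CPM, was lower still in uninjured muscle (1.31 CPM in hypothyroid and 2.02 CPM in control mice). H2ac24 and H2ac8 belong to a family of near-identical histone genes and Rps27rt is a retrocopy of Rps27, so how reads were divided among copies can move them, and they are uncertain.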

How the data were processed

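Cells of digested TAM were captured with 10x V3 3′ chemistry, and reads were aligned to mm39 with Cell Ranger in Partek Flow, as the methods state. The authors filtered cells and deposited log2(CPM + 1) values per cell and gene, 12436 genes. The deposited log2 values were turned back to CPM, and UMIs were recovered by dividing by the most frequent CPM above 0 of each cell. Whole numbers came out for 99.94% of values at 5 dpi and 99.935% at 14 dpi, within 0.05 UMI or 0.1% of the value.

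The first run of alphabetical barcodes in each table was used. UMIs were summed over cells (Python 3.11.15, NumPy 2.4.6, pandas 2.3.3), scaled to CPM, and given exact Poisson and binomial 95% intervals (SciPy 1.17.1). Figures were drawn with Matplotlib 3.10.9. The study's own test over cells was not used, since cells are not replicates. The procedure was tried on simulated data in which UMIs were independent counts. Such data do not cover UMIs that sit in few cells, or differences between mice or preparations. Where a time had 0 UMIs, a bound against 3 UMIs is given. Alternatives were another scaling, other minimums, the mean over cells, thinning, other marker rules, and all columns. Doublets were not removed, and cells with UMIs of more than 1 marker were counted.

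The members, gene lists, and tests were chosen with earlier results of these data known. Named genes were the cell type markers, in each set the 8 genes each way with the largest ratio by the interval end nearest 1 (at least 100 UMIs in the higher pool, in at least 20 cells), and up to 4 members each way of each list (at least 100 UMIs). Chosen after their values were seen were Gm10076, Gm12840, and Rps27rt in all cells, Cthrc1, Dlk1, Gm10076, Ccl2, Postn, Cdk1, Ccnb2, Aurkb, Hmgb2, Pcna, Mcm3, Mcm6, Sema3c, Clec3b, Fn1, and Mfap5 in Pdgfra+ cells, Gpihbp1 and Edn1 in Cdh5+ cells, and Retnla, H2-Eb1, H2-DMa, and Ciita in Lyz2+ cells. Some results are not reported here.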

Additional observations from a re-analysis of the deposited data

Results flagged for a closer look

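Some genes differed in opposite directions between diets or between cell sets. With 1 library a time none of these differences was tested, and all values are ratios of 14 dpi to 5 dpi. Between diets, Gm10076 in Cdh5+ cells was at 0.1995 on the hypothyroid and 2.514 on the control diet, and Myh8 in all cells at 128.5 and 0.1273.

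Between restricted cell sets of the hypothyroid libraries, MHC class II genes went opposite ways. In restricted Pdgfra+ and Lyz2+ cells, Cd74 was at 0.3221 and 4.173, H2-Aa at 0.2392 and 4.003, H2-Ab1 at 0.3013 and 3.879, and H2-Eb1 at 0.2577 and 3.601. In all Pdgfra+ cells 0 of 6 MHC class II genes were called (508 and 590.4 CPM summed), while in restricted ones 4 of 4 were lower (120.7 and 35.85 CPM). Ccl9 was at 0.1441 and 3.695, and Mmp13 at 0.03201 (81 and 2 UMIs in Pdgfra+ cells) and 4.115. C3 was at 2.112 and 0.2766. Aqp1 was at 0.2357 in restricted Pdgfra+ and 2.761 in restricted Cdh5+ cells. Pgf was at 4.039 in Pdgfra+, 3.116 in Cdh5+, and 0.07094 in Lyz2+ cells (132 and 2 UMIs in the last). Vcam1 was at 0.4497, 0.3181, and 2.534 in the same order.

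Among all marker-positive cells, Cenpf was at most 0.01658 against 3 UMIs in Pdgfra+ cells (282 and 0 UMIs). In Cdh5+ cells Cenpf was at 5.727 (6 and 102 UMIs, 2.542 to 15.97). Of 20 DNA replication and mitosis genes compared in Cdh5+ cells, 1 was higher and 0 lower (median log2 ratio -0.328). Of all genes, 3.37% were higher and 2.28% lower there. Myog was at 0.1764 in Pdgfra+ cells, at least 22.68 against 3 UMIs in Cdh5+ cells (0 and 202 UMIs, in 6 cells), and at 3.135 in Lyz2+ cells.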

How the results depend on the processing

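Leaving out a replicate was not possible with 1 library a time. No paired analysis was possible because each time had 1 library and no test was made. The settings on restricted cells were chosen after seeing the data. Of 2533 values of named genes under alternatives, 1175 moved by less than their interval, 1336 moved by more, and 22 changed direction, and the cause was not tested.

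Genes called higher and lower over all cells were 521 and 342 with thinning, and 603 were higher with all columns. For the mean over cells no interval was computed, and a gene was counted where its ratio alone reached 2-fold. By this looser rule 1684 genes were higher and 1139 lower over all cells. The counts given below for the mean follow the same rule, so they cannot be set against the calls. In Pdgfra+ cells they were 1080 and 1472 with the mean and 138 and 128 with thinning, 415 were higher with median-ratio scaling and 454 with all columns, and 534 were lower with at least 200 UMIs. In Cdh5+ cells they were 136 and 101 with at least 200 UMIs, 1042 and 507 with the mean, 47 and 21 with thinning, 93 and 53 with no UMI of another marker, 94 and 44 in restricted cells, and 112 and 37 in those up to 20000 UMIs. With at least 2 UMIs of Cdh5 80 were lower, and with further markers 65. In Lyz2+ cells they were 292 and 129 with at least 200 UMIs, 1652 and 750 with the mean, 149 and 51 with thinning, 342 and 125 with at least 2 UMIs of Lyz2, 253 and 120 with no UMI of another marker, 273 and 114 with further markers, and 126 and 87 in restricted cells up to 20000 UMIs. In restricted Lyz2+ cells 124 were higher, and with median-ratio scaling 319 were lower. The genes compared also differed in number, so a smaller count need not be a smaller share. Under the main setting 10579, 6853, and 10223 genes were compared in Pdgfra+, Cdh5+, and Lyz2+ cells. With at least 200 UMIs these were 6908, 2706, and 6238, and with thinning 3172, 1537, and 3761. Over all cells 12102 genes were compared under the main setting and 8902 with thinning. With no UMI of another marker they were 4772 in Cdh5+ and 8544 in Lyz2+ cells.

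The ratio of Pdgfra+ shares was 1.87 thinned, 1.712 without cells over 20000 UMIs, 1.646 with all columns, and 1.81 in restricted cells up to 20000 UMIs. For Cdh5+ it was 10.03 with no other marker, 3.994 with all columns, 10.68 restricted, and 9.319 restricted up to 20000 UMIs. For Lyz2+ it was 0.4119 thinned, 0.3639 with at least 2 UMIs, 0.3473 with no other marker, 0.3432 with further markers, 0.7633 with all columns, 0.2915 restricted, and 0.2626 restricted up to 20000 UMIs.

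The alternatives were run for 242 pairs of a named gene and a cell set. A turn of direction was looked for only in the pairs called under the main setting. Among these, direction turned in Cdh5+ cells for Ccl4 (1.384 with no other marker, 1.211 restricted, 1.84 restricted up to 20000 UMIs), Ctss (1.422 restricted, 1.44 up to 20000), Cxcl5 (4.539 thinned, 1.645 with at least 2 UMIs, 13.72 with further markers, 5.529 restricted, 5.536 up to 20000), and Lox (1.236 thinned). In Lyz2+ cells it turned for Fabp4 (0.9247 with no other marker, 0.8252 restricted, 0.501 up to 20000), Timp3 (0.5178 restricted), Mmp3 (0.5853 restricted, 0.9491 up to 20000), Mmp2 (0.8957 restricted), and Sfrp2 (1.165 up to 20000). With all columns it turned over all cells for Hba-a1 (0.8692), Hba-a2 (0.796), and Hbb-bs (0.4767). Lox in Cdh5+ cells and Sfrp2 in Lyz2+ cells are not described above and were lower there under the main setting. Tnc in Cdh5+ cells was not among the pairs. It was at 0.2845 there and at 2.103 in restricted cells (16 and 213 UMIs, not called).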
